A study of Mus musculus with 4 samples.

Results

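In the WT mouse liver, 3118 promoters carried the histone variant H2A.Z next to the transcription start site (TSS) with no accessible region detected by ATACseq within 5 kb. They were chosen from the protein-coding genes of GENCODE vM21 on chromosomes 1 to 19. A gene was eligible when no protein-coding TSS lay on the opposite strand within 1 kb, which left 18486 of 20807 TSSs. A member had at least 1 WT H2A.Z summit within 500 bp of the TSS and no WT ATACseq peak within 5 kb of it. The members were 45.4% (95% Wilson interval 44.2 to 46.6%) of the 6872 eligible H2A.Z promoters and 16.9% of all eligible TSSs. A further 3463 H2A.Z promoters had a WT ATACseq peak within 500 bp, and 291 had one only between 500 bp and 5 kb. Another 10334 TSSs had neither call, and 1280 had an ATACseq peak without an H2A.Z summit. Since the WT lists chose the members, the WT values below are descriptions, and the Uhrf1hepKO lists are the readouts that the choice did not use.

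The study profiled livers of male C57Bl/6 mice aged 8 to 12 weeks, 1 WT control carrying floxed Uhrf1 alleles (Uhrf1 fl/fl) and 1 Uhrf1hepKO (Uhrf1 fl/fl;Alb:Cre), each by ATACseq and by H2A.Z ChIPseq. Cre is driven by the albumin promoter, so the deletion is directed at hepatocytes, and the peak lists do not show which cells of the liver kept Uhrf1. There was 1 library per genotype and assay, 4 in all, and no difference between genotypes could be tested against the spread between animals. The intervals given below cover counting error over promoters only, and neighbouring promoters are not independent. The deposited lists hold peaks and no read totals, so the depth of the libraries is unknown. On chromosomes 1 to 19 the lists held 10439 ATACseq peaks in WT and 10636 in Uhrf1hepKO, and 50665 and 46400 H2A.Z peaks. The ATACseq lists reach a q-value of 0.0997 in WT and 0.0993 in Uhrf1hepKO, and the H2A.Z lists stop at 0.05. A promoter without a listed peak has no level in these files, and weaker accessibility was not detectable at this depth. Uhrf1 itself was not a member, because a WT ATACseq peak lay 664 bp from its TSS. Its promoter had an H2A.Z summit at fold 6.58 in WT and 6.04 in Uhrf1hepKO, and peaks at a TSS do not check the deletion of other exons.

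H2A.Z is a variant of histone H2A that the SRCAP and p400 remodelling complexes place into nucleosomes, most often those that flank the TSS of active or poised genes. ATACseq uses the Tn5 transposase, which inserts adapters where DNA is free of nucleosomes, and a promoter in use usually shows such a gap between its H2A.Z nucleosomes. H2A.Z and DNA methylation tend to exclude each other at CpG-rich promoters, and Uhrf1 is a factor needed to copy DNA methylation when cells divide.

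The promoters of 9 members are printed here, 3 for each of 3 reasons, from 250 bp before to 50 bp after the TSS on the strand of the gene, with each CpG in capitals. Mrps22, Fam8a1 and Rfc3 had the highest WT H2A.Z folds among the members. Enpp4, Tcn2 and Arl15 had the strongest Uhrf1hepKO ATACseq peaks, and Zfp455, Sat2 and Zfp58 had the highest WT folds among CpG-poor members. The bases are from the RefSeq sequence of GRCm38. The windows are chr9:98601611-98601910 (minus strand) for Mrps22, chr13:46669272-46669571 (plus strand) for Fam8a1, chr5:151651193-151651492 (minus strand) for Rfc3, chr17:44105760-44106059 (minus strand) for Enpp4, chr11:3932110-3932409 (minus strand) for Tcn2, chr13:113794255-113794554 (plus strand) for Arl15, chr13:67194256-67194555 (plus strand) for Zfp455, chr11:69621774-69622073 (plus strand) for Sat2 and chr13:67500506-67500805 (minus strand) for Zfp58. They held 16, 35 and 17 CpGs for the first group, 41, 8 and 29 for the second, and 6, 9 and 5 for the third.
Mrps22: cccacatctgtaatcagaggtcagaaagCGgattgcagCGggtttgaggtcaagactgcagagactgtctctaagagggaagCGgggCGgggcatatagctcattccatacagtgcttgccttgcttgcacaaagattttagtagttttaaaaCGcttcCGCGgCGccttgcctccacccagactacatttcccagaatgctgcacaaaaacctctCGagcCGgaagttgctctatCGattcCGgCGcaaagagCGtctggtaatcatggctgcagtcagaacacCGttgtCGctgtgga
Fam8a1: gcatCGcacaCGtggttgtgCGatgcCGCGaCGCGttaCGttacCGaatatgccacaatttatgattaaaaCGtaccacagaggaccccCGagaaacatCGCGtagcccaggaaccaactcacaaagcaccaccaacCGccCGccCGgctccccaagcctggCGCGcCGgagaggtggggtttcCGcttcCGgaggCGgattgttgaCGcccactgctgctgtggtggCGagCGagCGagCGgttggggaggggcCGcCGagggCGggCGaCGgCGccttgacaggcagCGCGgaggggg
Rfc3: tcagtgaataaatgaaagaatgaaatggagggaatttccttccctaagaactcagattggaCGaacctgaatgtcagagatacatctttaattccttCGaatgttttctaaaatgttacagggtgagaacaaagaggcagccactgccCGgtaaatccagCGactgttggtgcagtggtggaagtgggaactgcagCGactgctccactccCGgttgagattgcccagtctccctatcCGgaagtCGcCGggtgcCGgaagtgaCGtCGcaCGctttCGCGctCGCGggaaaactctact
Enpp4: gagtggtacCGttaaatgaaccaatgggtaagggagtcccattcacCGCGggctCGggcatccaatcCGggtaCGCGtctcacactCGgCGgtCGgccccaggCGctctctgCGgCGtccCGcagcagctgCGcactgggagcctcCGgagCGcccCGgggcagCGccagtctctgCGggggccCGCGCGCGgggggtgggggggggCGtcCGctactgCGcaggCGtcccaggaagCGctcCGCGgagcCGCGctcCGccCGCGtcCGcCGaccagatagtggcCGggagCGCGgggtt
Tcn2: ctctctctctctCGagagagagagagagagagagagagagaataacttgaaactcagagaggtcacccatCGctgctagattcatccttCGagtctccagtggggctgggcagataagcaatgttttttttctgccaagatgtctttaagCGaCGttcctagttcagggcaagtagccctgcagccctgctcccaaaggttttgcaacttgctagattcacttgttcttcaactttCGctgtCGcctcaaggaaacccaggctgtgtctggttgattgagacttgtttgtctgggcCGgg
Arl15: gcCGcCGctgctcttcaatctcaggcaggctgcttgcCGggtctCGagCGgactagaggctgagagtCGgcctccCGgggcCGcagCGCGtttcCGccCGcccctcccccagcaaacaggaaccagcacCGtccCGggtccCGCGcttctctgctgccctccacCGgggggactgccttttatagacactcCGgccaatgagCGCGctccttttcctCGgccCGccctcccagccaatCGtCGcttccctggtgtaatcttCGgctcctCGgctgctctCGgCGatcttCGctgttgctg
Zfp455: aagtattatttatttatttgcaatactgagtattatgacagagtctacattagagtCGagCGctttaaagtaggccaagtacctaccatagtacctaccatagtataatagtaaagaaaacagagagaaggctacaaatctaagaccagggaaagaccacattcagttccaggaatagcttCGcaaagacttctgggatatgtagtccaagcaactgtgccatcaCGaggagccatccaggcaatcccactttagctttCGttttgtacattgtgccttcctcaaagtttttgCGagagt
Sat2: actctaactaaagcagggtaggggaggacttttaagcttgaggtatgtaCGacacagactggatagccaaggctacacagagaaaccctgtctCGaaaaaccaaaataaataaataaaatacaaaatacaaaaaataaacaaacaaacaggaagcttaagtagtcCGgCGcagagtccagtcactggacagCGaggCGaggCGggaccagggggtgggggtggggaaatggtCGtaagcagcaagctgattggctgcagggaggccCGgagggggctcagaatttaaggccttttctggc
Zfp58: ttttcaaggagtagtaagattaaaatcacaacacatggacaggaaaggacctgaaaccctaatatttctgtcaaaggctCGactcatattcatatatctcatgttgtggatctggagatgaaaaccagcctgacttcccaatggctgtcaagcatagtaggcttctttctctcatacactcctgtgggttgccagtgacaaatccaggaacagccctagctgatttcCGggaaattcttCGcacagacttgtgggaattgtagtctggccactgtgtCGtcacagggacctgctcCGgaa

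The third set was picked for few CpGs, and the first and second without regard to sequence. The Enpp4 window is 73.7% G and C and the Zfp455 window 40.3%. The motif search described further on found a CCAAT box in Rfc3, Enpp4, Arl15, Sat2 and Zfp58. A GC box was in Mrps22, Fam8a1, Enpp4 and Arl15, and Tcn2 and Zfp455 held none of the motifs searched.

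The members with the highest WT H2A.Z folds were Mrps22, Fam8a1 and Rfc3. The fold of a summit is its read pileup plus 1 over the local background plus 1. The steps of the folds give a usual background of 3.10 reads per base in WT and 3.30 in Uhrf1hepKO, so most folds convert to reads at the summit. Mrps22, a protein of the small mitochondrial ribosome subunit, had a WT fold of 16.1 (65 reads) and a Uhrf1hepKO fold of 17.4 (74 reads). Fam8a1 had 16.1 (65 reads) and 16.0 (68 reads). Both had no ATACseq peak within 5 kb in either genotype, the nearest being 37877 and 37831 bp away for Mrps22 and 58420 and 48201 bp for Fam8a1. Rfc3, a subunit of the clamp loader of DNA replication, had a WT fold of 15.4 (62 reads) and a Uhrf1hepKO fold of 16.5 (70 reads). Its nearest WT ATACseq peak was 83314 bp away, whereas in Uhrf1hepKO a peak of fold 4.02 covered the TSS. Cenph, a kinetochore protein, had H2A.Z folds of 15.1 and 14.9 with no ATACseq peak within 5 kb in either list.

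The other members among the 8 highest WT folds also kept an H2A.Z call in Uhrf1hepKO. Fuz, needed for the building of cilia, had 15.1 in WT and 13.0 in Uhrf1hepKO. Ppp2r3a, a regulatory subunit of protein phosphatase 2A, had 15.1 and 11.9. Ttc30a1, a subunit of the particle that carries cargo into cilia, had 14.9 and 13.0, and Ufc1, the conjugating enzyme of the UFM1 modifier, had 14.9 and 14.2. All 8 had a Uhrf1hepKO summit within 500 bp, and Rfc3 was the only one of these 8 with an ATACseq peak within 5 kb in either list. The median WT fold was 6.34 over all members (quartiles 5.12 and 8.29, range 2.75 to 16.1) and 7.80 over the H2A.Z promoters with a WT ATACseq peak within 500 bp.

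**Figure D1:**
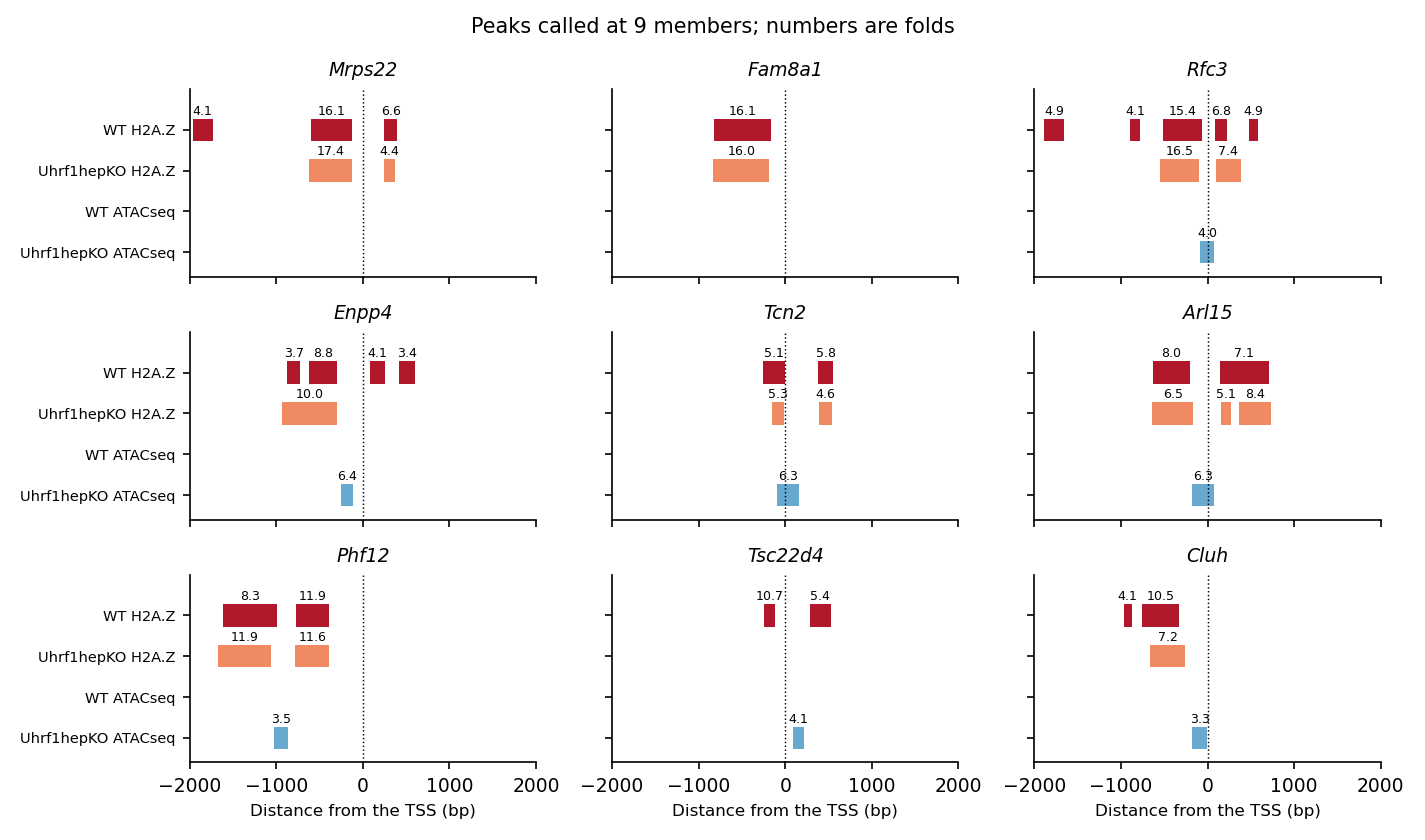
Peaks called within 2000 bp of the TSS at 9 members, with the distance from the TSS in bp on the x axis and 1 row per library. The bars are the called peaks and the numbers above them their folds. The top row holds the highest WT H2A.Z folds, the middle row the highest Uhrf1hepKO ATACseq folds, and the bottom row the highest WT folds among members without a Uhrf1hepKO H2A.Z summit within 500 bp. The WT ATACseq row is empty in every panel by the choice of the promoters, and a Uhrf1hepKO ATACseq peak is drawn in 7 of the 9.

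The H2A.Z summits of members were spread on either side of the TSS, with more of them upstream. Positions are in bp from the TSS, negative upstream. Members held 4557 WT summits (4492 distinct ones, with 74 members sharing a summit with another member), of which 57.7% (56.3 to 59.2%) were upstream. The fullest bins of 50 bp were -200 to -150 upstream and 100 to 150 downstream. At the H2A.Z promoters with an ATACseq peak they were -250 to -200 and again 100 to 150. The median upstream position was -224 in members against -268 with an ATACseq peak, and the median downstream position was 180 against 194. Where neighbouring summits lay on opposite sides of the TSS, they were a median of 395 bp apart in members (quartiles 322 and 534, 1073 pairs) and 470 bp with an ATACseq peak (363 and 576.5, 1639 pairs). Neighbours on the same side were 260 and 259 bp apart (366 and 482 pairs). Summits across the TSS thus stood closer together in members, and those on the same side were about equally spaced.

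The region next to the TSS held a larger share of the summits in members. Of their WT summits, 463 (10.2%, 9.32 to 11.1%) lay less than 100 bp from the TSS, against 340 (6.09%, 5.49 to 6.75%) at promoters with an ATACseq peak. In Uhrf1hepKO, 2671 of the members and 3225 of the promoters with an ATACseq peak had a summit within 500 bp. Of their Uhrf1hepKO summits, 8.97% (8.11 to 9.91%) and 6.10% (5.48 to 6.79%) lay less than 100 bp from the TSS. Slc25a21, a mitochondrial carrier of oxodicarboxylates, had its summit at 1 bp from the TSS in WT (fold 10.2, 41 reads) and at -4 bp in Uhrf1hepKO (fold 8.60, 36 reads). Hoga1, a mitochondrial aldolase of hydroxyproline breakdown, had it at 29 bp in both, at folds 7.07 and 7.44. Each list gives 1 summit per peak, so nucleosomes merged into the same peak are counted once.

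**Figure D2:**
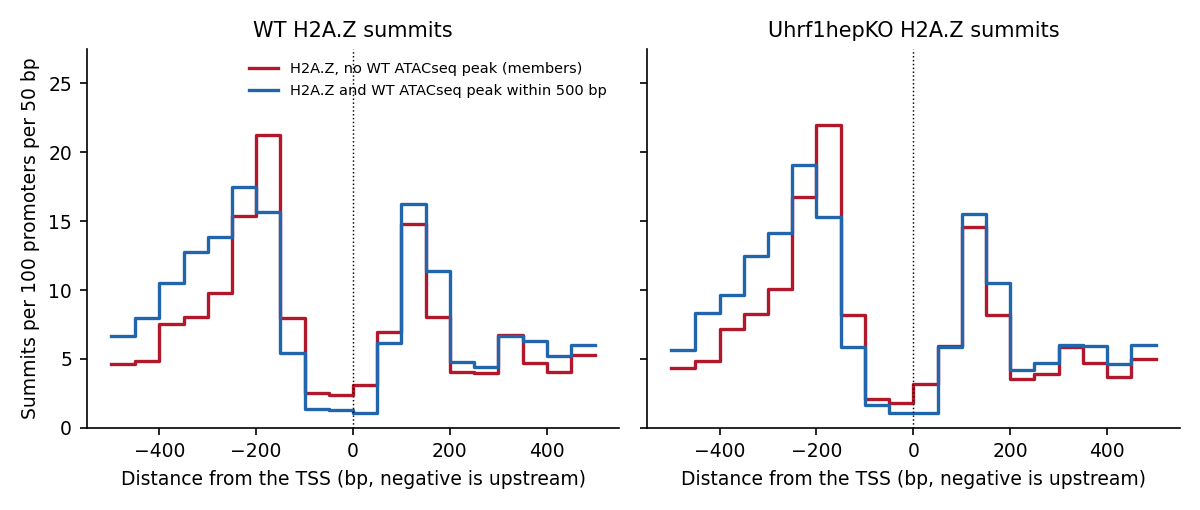
H2A.Z summits around the TSS in bins of 50 bp, with the distance from the TSS in bp on the x axis and summits per 100 promoters with a summit in that library on the y axis. Red is the members and blue the H2A.Z promoters with a WT ATACseq peak within 500 bp, in WT (left) and Uhrf1hepKO (right). Both groups peak upstream and between 100 and 150 bp downstream, and the members have more summits within 100 bp of the TSS and fewer beyond -200.

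H2A.Z on both sides of the TSS was less common in members than in promoters with an ATACseq peak. WT summits on both sides were present at 1073 members (34.4%, 32.8 to 36.1%) and at 47.3% (45.7 to 49.0%) of the promoters with an ATACseq peak, a difference of -12.9 percentage points (-15.3 to -10.6). Summits only downstream were seen at 20.7% of members and 11.7% of the others, and only upstream at 44.8% and 41.0%. A single summit was present at 1885 members (60.5%), 2 at 1035, 3 at 190 and 4 at 8. The members with most summits included Rbbp5, a core subunit of H3K4 methyltransferase complexes, with WT summits at -433, -135, 119 and 335 and Uhrf1hepKO summits at -439, -149 and 114. Vps51, a subunit of a vesicle tether, had WT summits at -394, -176, 137 and 388 and Uhrf1hepKO summits at -182, 118 and 368. Cstb, an inhibitor of lysosomal cathepsins, had 4 WT summits, 2 in Uhrf1hepKO, and a Uhrf1hepKO ATACseq peak of fold 3.69 over the TSS. Pigv, an enzyme of glycolipid anchor synthesis, had 4 WT summits and 1 in Uhrf1hepKO, with no ATACseq peak within 5 kb in either list. By annotation, the strongest WT summit of a member lay outside genes in 55.5%, in an exon in 26.7% and in an intron in 17.8%.

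The share of H2A.Z promoters without an ATACseq peak was highest where H2A.Z was weak and where CpGs were few. When the H2A.Z promoters were split into 5 classes by WT fold, the share without an ATACseq peak was 60.9% (58.4 to 63.4%) in the lowest class and 51.3%, 41.1%, 36.8% and 33.9% (31.4 to 36.5%) in the next 4. Split by how many CpGs lay within 500 bp on either side of the TSS, it was 64.7% (62.2 to 67.2%) for promoters with 0 to 38 CpGs. The other 4 classes lay between 38.2% and 43.8%, without a steady order. Members had a median of 54 CpGs, against 64 with an ATACseq peak, 15 with neither call and 36 over all eligible TSSs. A CpG-rich promoter, with at least 55% G and C and an observed over expected CpG ratio of at least 0.65, was found at 46.4% (44.7 to 48.2%) of members. The share was 61.9% with an ATACseq peak, 16.2% with neither call and 32.3% over all eligible TSSs. The difference between members and promoters with an ATACseq peak was -15.5 percentage points (-17.9 to -13.1).

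CpG-poor members could still carry strong H2A.Z. The CpG-poor members were taken as the lowest 20% by CpGs, at most 29, a limit set after the data were seen. Zfp455, a zinc finger gene with 16 CpGs, had a WT fold of 14.4 (58 reads) and a Uhrf1hepKO fold of 13.2 (56 reads). Sat2, of the polyamine acetyltransferase family, had 28 CpGs and folds of 14.1 (57 reads) and 12.3 (52 reads). Zfp58, with 26 CpGs, had folds of 13.6 and 12.4. None of these 3 had an ATACseq peak within 5 kb in either list.

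**Figure D3:**
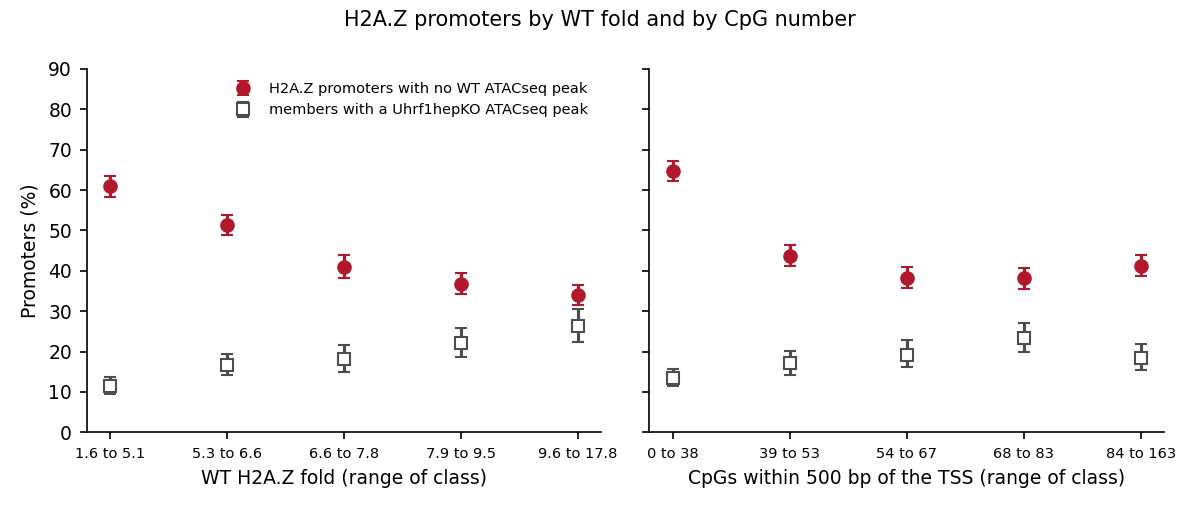
H2A.Z promoters in 5 classes of WT H2A.Z fold (left) and of CpGs within 500 bp of the TSS (right), with the range of each class on the x axis and percent of promoters on the y axis. Red points are the share without a WT ATACseq peak within 5 kb and open squares the share of those members with a Uhrf1hepKO ATACseq peak within 5 kb, both with Wilson 95% intervals. The red share is 60.9% at the lowest folds and 33.9% at the highest, and 64.7% in the class with fewest CpGs.

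Some sequence motifs were less frequent in members than in the H2A.Z promoters with an ATACseq peak. Motifs were searched as fixed letters on both strands in the same 300 bp windows as printed above. The CCAAT box (CCAAT) was in 32.7% (31.1 to 34.4%) of members and 47.4% (45.8 to 49.1%) of the others. The NRF1 motif (GCGCNTGCG) was in 9.65% against 19.3%, the CRE (TGACGTCA) in 2.63% against 5.49%, the E-box (CACGTG) in 8.92% against 12.3%, and the GC box (GGGCGG) in 56.7% against 64.9%. The ETS motif (CCGGAAG) was in 17.9% and 20.1%. For YY1 (AAGATGGC), CTCF (CNAGGGGGC), HNF4A (CAAAGTCCA), FOXA (TGTTTAC), CEBP (TTGCNCAA) and AP-1 (TGANTCA), the interval of the difference included 0. Over all eligible promoters the shares were 38.4% for the CCAAT box, 7.15% for NRF1, 2.23% for the CRE, 7.52% for the E-box, 41.2% for the GC box and 9.28% for ETS. Members thus lay below all promoters for the CCAAT box and above them for NRF1, the E-box, the GC box and ETS. For the CRE the interval of members (2.12 to 3.25%) included the share of all promoters. A TATA box (TATAAA, on the strand of the gene from 40 to 20 bp before the TSS) was in 0.802% of members, 0.722% with an ATACseq peak and 4.21% with neither call.

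Within CpG classes only some of these differences kept their direction. The CCAAT box was the rarer in members in all 5 classes. In the class with most CpGs the CCAAT box was in 19.1% (16.1 to 22.6%) of members and 42.2% (38.7 to 45.8%) of promoters with an ATACseq peak. In the class with fewest it was in 38.3% and 50.1%. The NRF1 motif was also the rarer in members in all 5 classes, from 1.43% against 4.33% in the lowest to 19.9% against 25.6% in the highest, and so were the CRE and the E-box. The GC box went both ways, with 26.5% of members against 31.0% in the class with fewest CpGs and 86.2% against 83.3% in the class with most. The ETS motif also went both ways, with 8.70% against 13.7% in the class with fewest CpGs and 26.9% against 20.8% in the middle class. A match of letters is a description of the window and not evidence of binding.

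H2A.Z was called again at most members in the Uhrf1hepKO liver. A Uhrf1hepKO summit lay within 500 bp of the TSS at 2671 members (85.7%, 84.4 to 86.9%), against 35.8% of all eligible TSSs. The share was 93.1% (92.2 to 93.9%) for promoters with a WT ATACseq peak and 2.69% (2.40 to 3.02%) for those with neither call. The difference between members and promoters with an ATACseq peak was -7.46 percentage points (-8.97 to -5.98). The share differed with the WT fold, and members in the lowest fold class had a Uhrf1hepKO summit in 63.0% and those in the highest in 99.1%. The strongest WT summit of a member was a median of 19 bp from the nearest Uhrf1hepKO summit, with 52.3% (50.6 to 54.1%) within 20 bp and 74.6% (73.0 to 76.1%) within 150 bp. Across the 2671 promoters called in both, the folds had Pearson's r = 0.845 and Spearman's rho = 0.823, which are values across sites of 1 pair of libraries and share the base composition of each site. Their median fold was 6.82 in WT and 6.97 in Uhrf1hepKO.

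The 447 members without a Uhrf1hepKO summit had the weaker WT H2A.Z. Their median WT fold was 4.63 (quartiles 4.14 and 5.36), against 6.82 (5.49 and 8.77) for the others, and 88.8% against 55.7% had a single WT summit. At 92 of the 447 (20.6%) the body of a Uhrf1hepKO peak reached within 500 bp while its summit lay further out, a count added after the data were seen. At 355 members (11.4%) neither a summit nor the body of a peak did, and for 242 of the 447 (54.1%) the nearest summit was over 5 kb away.

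At 4 of the 5 strongest of these members a Uhrf1hepKO summit lay just outside the window. Phf12, a Sin3 complex protein, had a WT summit at -470 bp with fold 11.9 and its nearest Uhrf1hepKO summit 682 bp from the TSS. Cluh, which binds messenger RNAs of mitochondrial proteins, had a WT fold of 10.5 at -391 bp and a Uhrf1hepKO summit 568 bp away. Suv39h2, a histone H3K9 methyltransferase, had a WT fold of 9.75 at -241 bp and a Uhrf1hepKO summit 601 bp away. Snapc3, a subunit of the complex for small nuclear RNA transcription, had a WT fold of 9.51 and a Uhrf1hepKO summit 509 bp away. Tsc22d4, the fifth, had WT summits at -176 and 406 bp with a highest fold of 10.7, and its nearest Uhrf1hepKO summit was 4396 bp away. A Uhrf1hepKO ATACseq peak of fold 4.10 lay 94 bp from its TSS. Such a peak also covered the TSS of Snapc3 (fold 3.92). It lay 5 bp from the TSS of Cluh (fold 3.35) and 863 bp from that of Phf12 (fold 3.53). Suv39h2 had none within 5 kb.

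An ATACseq peak was called in Uhrf1hepKO at a minority of the members. It lay within 5 kb at 550 members (17.6%) and within 500 bp at 471 (15.1%, 13.9 to 16.4%), against 25.2% and 20.1% of all eligible TSSs. H2A.Z promoters with a WT ATACseq peak had 77.5% (76.1 to 78.9%) and 75.9% (74.5 to 77.3%), and promoters with neither call had 3.41% and 1.19%. The members were selected for the absence of a WT peak, so the rule was also run with the genotypes exchanged. When the Uhrf1hepKO lists chose the promoters by the same rule, 3296 qualified, and 861 of them (26.1%, 24.7 to 27.6%) had a WT ATACseq peak within 5 kb, 775 (23.5%) within 500 bp. Of those 3296, 90.8% had a WT H2A.Z summit. Both genotypes chose 2185 promoters, which is 70.1% of the WT choice and 66.3% of the Uhrf1hepKO choice. A difference between the genotypes cannot be told apart from this selection or from a difference between 2 libraries.

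**Figure D4:**
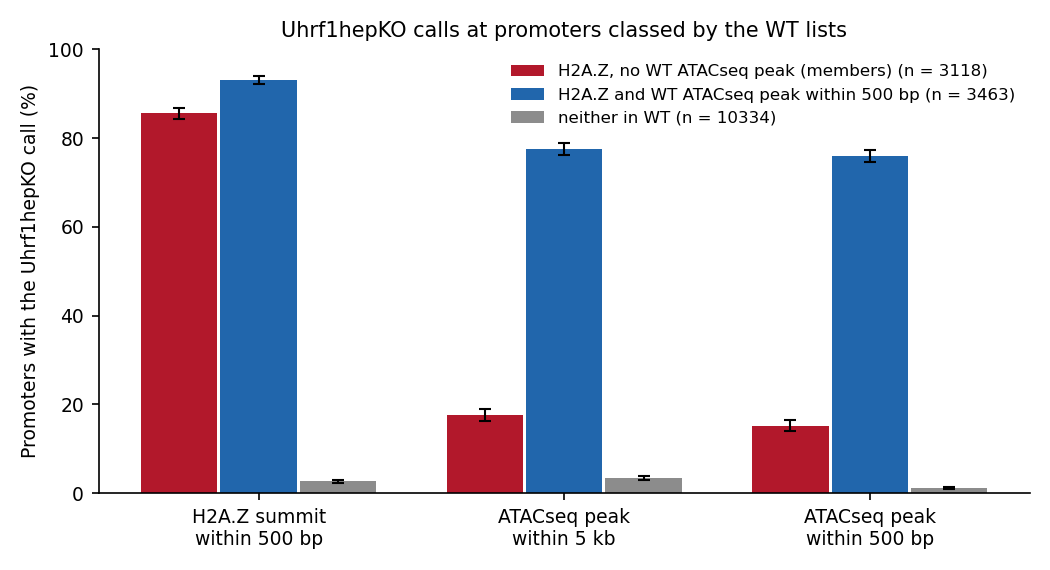
Share of promoters with a Uhrf1hepKO call, in percent on the y axis, for an H2A.Z summit within 500 bp, an ATACseq peak within 5 kb and an ATACseq peak within 500 bp. Red bars are the 3118 members, blue bars the 3463 H2A.Z promoters with a WT ATACseq peak within 500 bp and grey bars the 10334 promoters with neither, with Wilson 95% intervals. Members stand near the blue bar for H2A.Z (85.7% and 93.1%) and far below it for ATACseq (17.6% and 77.5%).

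H2A.Z and ATACseq calls together give 4 outcomes for the members in Uhrf1hepKO. H2A.Z without an ATACseq peak was again seen at 2185 (70.1%), and H2A.Z with an ATACseq peak within 5 kb at 486 (15.6%). No H2A.Z summit and no ATACseq peak were seen at 383 (12.3%), and an ATACseq peak without an H2A.Z summit at 64 (2.05%). The members with stronger WT H2A.Z had the ATACseq call more often, 26.3% (22.4 to 30.5%) within 5 kb in the highest fold class and 11.4% in the lowest. The peaks at the 471 members had a median fold of 3.77 (range 3.25 to 6.37) and a median width of 183 bp. At promoters that also had a WT ATACseq peak the median was 4.61 and 277 bp. At 312 of the 471 (66.2%) the peak covered the TSS itself, and 386 (82.0%) had a q-value of 0.05 or lower.

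The strongest Uhrf1hepKO ATACseq peaks at members belonged to genes of varied function. Enpp4, an ectonucleotidase, had a peak of fold 6.37 at 111 bp from the TSS, with the nearest WT peak 438501 bp away. It had WT H2A.Z summits at -375 and 196 bp (fold 8.77), and the nearest Uhrf1hepKO summit was 545 bp away. Tcn2, the plasma carrier of vitamin B12, had an ATACseq peak of fold 6.31 over the TSS. Its H2A.Z summits were at -70 and 460 bp in WT (fold 5.85) and at -66 and 452 bp in Uhrf1hepKO (fold 5.35). Arl15, a small GTPase, had an ATACseq fold of 6.28 over the TSS, with H2A.Z folds of 8.04 in WT and 6.51 in Uhrf1hepKO. Espl1, the protease that separates sister chromatids, had an ATACseq fold of 6.23 over the TSS and H2A.Z folds of 9.51 and 11.4.

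The next 4 by Uhrf1hepKO ATACseq fold included mitochondrial enzymes. Fam234a had an ATACseq fold of 6.02 at 56 bp from the TSS, with H2A.Z folds of 7.07 in WT and 8.60 in Uhrf1hepKO. Hoga1 had an ATACseq fold of 5.90 over the TSS. Mecr, the last enzyme of the mitochondrial fatty acid synthesis cycle, had 5.62 over the TSS, and its nearest WT peak was only 5073 bp away, just beyond the limit. Crisp2, a secreted protein of sperm, had 5.61 at 290 bp from the TSS, with 5 CpGs in its promoter and H2A.Z folds of 5.36 and 8.83.

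The nearest ATACseq peak was usually distant from members, and in WT it lay beyond 5 kb by the rule. No other class of promoters is set beside these distances. The nearest WT peak was a median of 42988 bp from the TSS (quartiles 19980 and 89481), and 43.9% of members had none within 50 kb. The nearest Uhrf1hepKO peak was a median of 31167 bp away, counting the 550 members with a peak within 5 kb. Another annotated coding start of the same gene lay over 5 kb from the TSS used at 806 members (25.8%). Such a start had a WT ATACseq peak within 500 bp at 41 of these 806, which is 1.31% of all members. A noncoding TSS on the opposite strand lay within 1 kb at 294 members (9.43%, 8.45 to 10.5%) and at 12.1% (11.0 to 13.2%) of promoters with an ATACseq peak. By chromosome, members made up from 11.6% of eligible TSSs on chromosome 14 to 22.8% on chromosome 19.

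Several lists of basic cell functions had more members per eligible promoter than the background of 16.9%, and H2A.Z itself was frequent in them. Of the eligible promoters of mitochondrial ribosomal proteins, 21 of 45 were members (46.7%, 32.9 to 60.9%). These included Mrps10 with folds of 13.6 in WT and 13.5 in Uhrf1hepKO, Mrps35 with 11.2 and 8.83, and Mrps31 with 10.7 and 11.2. H2A.Z was present at 40 of the 45, so members were 52.5% (37.5 to 67.1%) of the list's H2A.Z promoters, an interval that includes the 45.4% of all genes. RNA polymerase II subunits had 5 members of 8, led by Polr2c with folds of 11.9 and 9.99. Polr2a, the catalytic subunit, had 8.04 and 9.30 with no ATACseq peak within 5 kb in either list, and Polr2m had a Uhrf1hepKO ATACseq peak of fold 3.94 over the TSS. Proteasome subunits had 10 members of 29, or 10 of the 25 with H2A.Z, among them Psmc3 (11.7 and 12.1) and Psmb5 (11.2 and 12.1). Genes named Zfp had 127 of 354 (35.9%), or 45.8% of its 277 H2A.Z promoters. The highest WT folds among them were at Zfp455, Zfp58 and Zfp65 on chromosome 13 and Zfp780b on chromosome 7.

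Oxidative phosphorylation subunits and cytosolic ribosomal proteins were nearer the background. Oxidative phosphorylation had 14 of 53 (26.4%, 16.4 to 39.6%), with Ndufa3 at folds 12.2 and 13.2 and Ndufa9 at 11.5 and 10.7. Cytosolic ribosomal proteins had 13 of 61 (21.3%, 12.9 to 33.1%). A Uhrf1hepKO ATACseq peak lay within 500 bp at 9 of these 13, against 15.1% of all members and 20.1% of all eligible TSSs. Rpl23 was among the 9, with an ATACseq fold of 4.06 over the TSS and H2A.Z folds of 9.99 and 9.53. Rpl6 was not, with H2A.Z folds of 10.7 and 6.51. As a share of H2A.Z promoters, cytosolic ribosomal proteins lay lower (28.9%, 17.7 to 43.4%) than all genes (45.4%). The study's list of cell proliferation genes had 132 members of 486 (27.2%, 23.4 to 31.3%), or 39.4% of its H2A.Z promoters. The study drew that list from silenced genes of its chromatin states S1 and S2. Those states were built in part from these libraries, so these shares are not independent of the choice of members. Swap70 had folds of 14.6 and 13.7, and Atad5, which unloads the sliding clamp after replication, had 13.9 and 10.9.

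Genes of liver function that carried H2A.Z were mostly without an ATACseq peak. Of the study's liver enriched genes, 67 of 249 eligible promoters had an H2A.Z summit, and 55 of the 67 were members (82.1%, 71.3 to 89.4%). The list as given with the study holds 258 symbols, which is more than the study's text counts. Members were 22.1% of its eligible promoters. Within the list, members were 14 of 111 promoters (12.6%) in the study's chromatin state S1 and 38 of 79 (48.1%) in S2, the highest share of any list with at least 15 eligible TSSs. As a share of H2A.Z promoters these were 14 of 17 (82.4%) and 38 of 47 (80.9%). The states were built in part from these libraries, so this split is not independent of the choice of members. Most of the 67 were CpG-poor, and in the class of 0 to 38 CpGs members were 50 of 58 (86.2%, 75.1 to 92.8%), against 64.7% of all H2A.Z promoters in that class. Abcb11, the bile salt export pump, had a fold of 10.7 in both genotypes (43 and 45 reads). F13b, the carrier subunit of coagulation factor XIII, had 10.7 in WT and 6.27 in Uhrf1hepKO, and F7, coagulation factor VII, had 8.77 and 10.7. None of these 3 had an ATACseq peak within 5 kb in either list. Uroc1, of histidine breakdown, had folds of 8.29 and 9.30 and a Uhrf1hepKO ATACseq peak of fold 4.27 at 357 bp from the TSS.

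H2A.Z promoters of cytochrome P450 genes and of hepatocyte transcription factors were also mostly without an ATACseq peak. Of 20 cytochrome P450 promoters with H2A.Z among 97, 17 were members (85.0%, 64.0 to 94.8%). As a share of the 97 eligible promoters they were 17.5% (11.2 to 26.3%), near the 16.9% of all eligible TSSs. All 14 with H2A.Z in the class with fewest CpGs were members, against 64.7% of all H2A.Z promoters in that class. Cyp2c68 had an H2A.Z summit at 82 bp in WT (fold 6.82) and at 75 bp in Uhrf1hepKO (fold 6.74), with 7 CpGs. Cyp4f13 had folds of 10.5 and 10.2 and a Uhrf1hepKO ATACseq peak of fold 3.56 over the TSS. Of 6 hepatocyte transcription factors with H2A.Z, 5 were members (83.3%, 43.6 to 97.0%), an interval that includes the 45.4% of all genes. They were 26.3% (11.8 to 48.8%) of the 19 eligible promoters, an interval that includes the background of 16.9%. The class with fewest CpGs held 4 of the 6, all members. Nr1h4, the bile acid receptor FXR, had folds of 6.34 and 6.51. Foxa1, a pioneer factor, had 5.61 and 4.65. Nr1i2, the xenobiotic receptor PXR, had 6.34 in WT and no Uhrf1hepKO summit within 500 bp, the nearest being 525 bp away. Xbp1, of the unfolded protein response, had 4.63 in WT and its nearest Uhrf1hepKO summit 506 bp away.

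Few markers of liver cell types were members, and each list is too small to set apart from the 16.9% of all eligible TSSs. The upper limits of the lists' intervals ran from 35.4% (Kupffer and endothelial cell markers) to 56.4% (cholangiocyte markers). The 6 hepatocyte markers (Alb, Apoa1, Ttr, Cps1, Serpina1c and Hnf4a) had neither an H2A.Z summit within 500 bp nor a WT ATACseq peak within 5 kb. In Uhrf1hepKO, an ATACseq peak covered the TSS of Alb, and the other 5 again had neither. The hepatocyte identity of the tissue therefore cannot be read from these TSSs. None of the 7 Kupffer cell, 7 endothelial cell and 6 T and B cell markers was a member. Among cholangiocyte markers 1 of 6 was, Spp1, at folds 4.63 and 5.81, and among stellate cell markers 1 of 8 was, Dcn, with 3.90 in WT and no Uhrf1hepKO summit within 500 bp. In a whole liver, a call in few cells and a weak call in all cells cannot be told apart.

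Of the interferon response genes, 13 of 28 were members (46.4%, 29.5 to 64.2%). They were 68.4% (46.0 to 84.6%) of the 19 in the list that carried H2A.Z. In the class with fewest CpGs they were 11 of 13 (57.8 to 95.7%), an interval that includes the 64.7% of all H2A.Z promoters in that class. Ddx58, the RNA sensor RIG-I, had folds of 11.7 in WT and 8.13 in Uhrf1hepKO. Isg15, a ubiquitin-like modifier, had 11.5 and 9.76 and a Uhrf1hepKO ATACseq peak 2715 bp away. Irf3, a transcription factor downstream of RIG-I, had 9.02 and 7.90. Ifit3 had 4 CpGs, a WT summit at 169 bp (8.53) and a Uhrf1hepKO summit at 176 bp (10.2). A Uhrf1hepKO summit was present at 12 of the 13, the exception being Dhx58 (named after its values were seen), and none had a Uhrf1hepKO ATACseq peak within 500 bp. Over all members these shares were 85.7% and 15.1%, and 13 genes are too few to set apart from them.

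Inducible and rhythmic genes were near the background. Immediate early genes had 6 of 28 (21.4%, 10.2 to 39.5%). Socs3, a feedback inhibitor of cytokine signalling, had folds of 8.04 and 6.97, and Fosl2, an AP-1 subunit, had 7.07 and 4.65 with a Uhrf1hepKO ATACseq peak 3800 bp away. Ier2 had 6.34 and 6.27 and a Uhrf1hepKO ATACseq peak of fold 4.31 over the TSS. Egr1 had 6.09 and 4.65 and no ATACseq peak within 5 kb in either list. Circadian clock genes had 3 of 21, Csnk1e, Hlf and Rora. Solute carriers had 61 of 326 (18.7%, 14.8 to 23.3%), led by Slc30a6, a zinc transporter, at folds of 11.9 and 10.4 with a Uhrf1hepKO ATACseq peak of fold 4.05 over the TSS.

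Gene families known for their roles in other tissues or in the embryo held few H2A.Z promoters and few members. Olfactory receptors had 6 of 1086 (0.552%, 0.253 to 1.20%), with WT folds from 3.90 to 6.34. Vomeronasal receptors had 0 of 325, neuronal genes 0 of 27, Hox genes 1 of 39 (Hoxa7, folds 7.80 and 6.27), other homeobox genes 2 of 87 and potassium channels 1 of 92. Protocadherins had 7 of 66, and keratins 2 of 49 (Krt8 at 5.61 and 5.35, and Krt222). As a share of the few H2A.Z promoters in these lists, members were 6 of 6 olfactory receptors, 7 of 8 protocadherins, 2 of 2 keratins and 1 of 1 Hox genes. They were 2 of 6 other homeobox genes (9.68 to 70.0%) and 1 of 4 potassium channels (4.56 to 69.9%). Among Sox, Fox, Gata, Tbx and Wnt genes they were 8 of 12 (39.1 to 86.2%). These intervals all include the 45.4% of all genes. The 6 olfactory receptors were all in the class with fewest CpGs, where members were 64.7% of all H2A.Z promoters. The 8 members among 92 Sox, Fox, Gata, Tbx and Wnt genes included Foxj2 (9.75 and 13.5) and Foxd2, which had folds of 8.77 and 8.13 and a Uhrf1hepKO ATACseq peak at 89 bp from the TSS. Of the genes the study placed in its chromatin states S3 and S5, 68 of 296 (23.0%) and 6 of 122 (4.92%) were members. Those states were built in part from these libraries and are not independent of them.

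**Figure D5:**
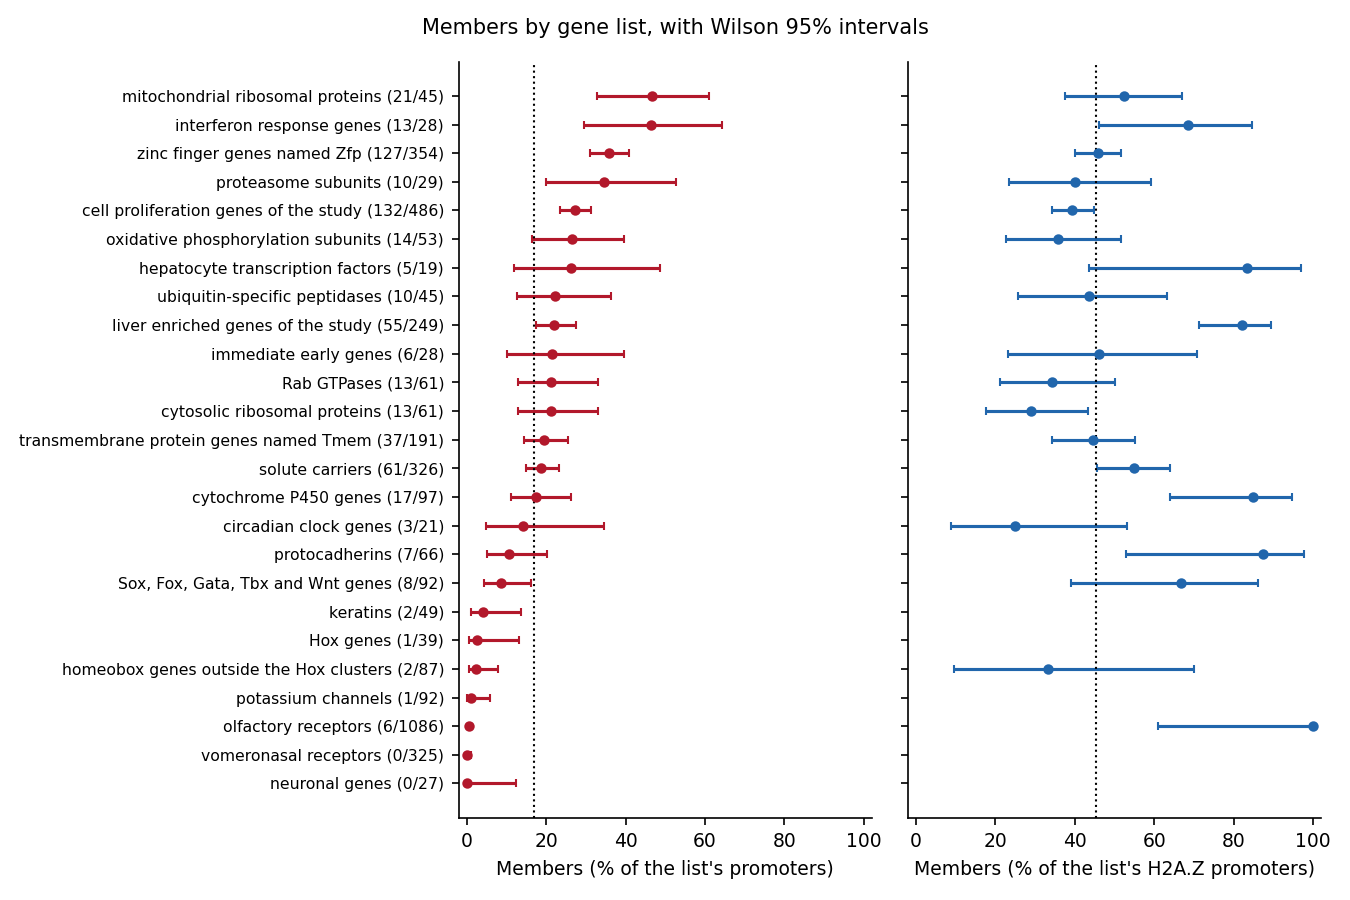
Share of promoters that were members, by gene list, for the lists with at least 15 eligible TSSs, without those split by the study's chromatin states. The left panel gives members as percent of the list's eligible promoters and the right panel as percent of its H2A.Z promoters (drawn for at least 5), with Wilson 95% intervals and dotted lines at 16.9% and 45.4% for all genes. Mitochondrial ribosomal proteins and interferon response genes are highest on the left among the lists drawn (46.7% and 46.4%), and liver enriched and cytochrome P450 genes stand to the right of the line on the right (82.1% and 85.0%).

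Genes named Tmem had 37 of 191 (19.4%), Rab GTPases 13 of 61 (21.3%) and ubiquitin-specific peptidases 10 of 45 (22.2%). Tmem242 had folds of 14.6 and 13.9, and Tmem165, a Golgi ion transporter, had 11.0 and 11.6 with a Uhrf1hepKO ATACseq peak of fold 4.97 over the TSS. Rab7, of late endosomes, had 9.26 and 5.11 with a peak of fold 4.74 over the TSS. Usp16, a histone H2A deubiquitinase, had 12.7 and 10.7 and no ATACseq peak within 5 kb in either list.

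Promoters on both sides of each limit of the rule are given here with their distances. Members just inside the summit limit were Arhgap5 at -500 bp, Zfp618 at 499 bp and Cer1 at -499 bp, and none of these 3 had a Uhrf1hepKO summit within 500 bp. Just outside were Hectd2 and Ppp3cb, with a WT summit 502 bp away, and Il1rl2 at 503 bp. At the ATACseq limit, the members Uba3, Cars2 and Rbbp9 had their nearest WT peak 5012, 5026 and 5058 bp away, and Fbxl18, Nr1h2 and Tmem230 were left out for peaks 4960, 4951 and 4920 bp away. The genes that the study uses as examples, Fbp1, E2f1, Mcm2, Fbxo48 and Uhrf1, were not members. Fbp1 had no WT H2A.Z summit within 500 bp, and the other 4 had a WT ATACseq peak within 5 kb.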

How the data were processed

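ATACseq and H2A.Z ChIPseq peaks from 1 WT and 1 Uhrf1hepKO liver were analysed. The series' design text gives both assays as made from the same livers. The authors aligned reads to GRCm38.p4 (mm10) with BWA and Picard and ran MACS2 separately on every library (for ATACseq with its broad setting and paired-end option). FastQC 0.11.5 and Trimmomatic are also named in the submitters' processing notes. The MACS2 version, the control library and any shift of ATACseq reads for the transposase are not given in the sources used here. Reads in ATACseq are described as single-end, which differs from that option, and the effect on peak widths was not tested. Each deposited peak has a fold (the ratio of pileup to local background), a −log10 p-value and a −log10 q-value, and a display score, which was not used as a measure. Folds are not scaled between libraries.

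A TSS was the annotated start of the protein-coding gene in GENCODE vM21. Distances were taken to the H2A.Z summit and to the nearest edge of an ATACseq peak, with Python 3.11.15, numpy 2.4.6 and pandas 2.3.3. Figures were drawn with matplotlib 3.10.9. Shares have Wilson and differences Newcombe 95% intervals, which cover counting error only. With 1 library per group no p-value was computed. The counting was checked on simulated peaks. The members and gene lists were chosen with earlier results of these data known. Of 175 symbols in the typed lists, 6 were not among the coding genes of chromosomes 1 to 19.

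Genes named are the 8 highest WT H2A.Z folds, the 5 with most WT summits (the one known only by a clone name is not described), the 8 highest Uhrf1hepKO ATACseq folds within 500 bp, the 5 highest WT folds without a Uhrf1hepKO summit, up to 4 per gene list by WT fold, 3 on each side of each limit, the study's example genes and the 3 highest WT folds among CpG-poor members. Dhx58 is named outside this choice. Alternatives were other distances, a minimum fold, a stricter ATACseq q-value, other transcript starts and the genotypes exchanged.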

Additional observations from a re-analysis of the deposited data

How the results depend on the processing

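Of 50 values under 8 alternatives, 30 stayed within the interval of the reported value (for the number of members, within 1.5 times) and 20 moved. The number of members ranged from 2206 to 3450. The share of H2A.Z promoters without an ATACseq peak was 48.3% with a limit of 1 kb for the ATACseq peak, 41.7% with 10 kb, 47.3% with summits within 250 bp, 42.1% with WT H2A.Z folds at or above the median, 47.1% with ATACseq peaks of q 0.05 or lower and 49.8% when the Uhrf1hepKO lists chose. The share with an H2A.Z summit in the other genotype was 88.7% (250 bp), 93.3% (fold) and 90.8% (genotypes exchanged), and 88.6% when the body of a peak counted, an alternative chosen after seeing the data. The share with an ATACseq peak within 5 kb in the other genotype was 21.0% (1 kb), 19.7% (fold) and 26.1% (exchanged), and within 500 bp 17.1% (fold) and 23.5% (exchanged). CpG-rich promoters were 40.4% (250 bp) and 48.9% (exchanged) of members. Summits on both sides were present at 43.6% (250 bp), 25.6% (fold) and 32.7% (exchanged). The causes were not tested.

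With 1 library per group, leaving out a replicate leaves no library in that group. No paired analysis was possible because each genotype and assay has 1 library. The lists give no level where no peak was called, and an ATACseq peak missing from a list of about this length is not evidence of closed chromatin.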
